A study of Mus musculus with 6 samples.

Results

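Linker histone H1 genes were examined in C1498, an established mouse cell line of C57BL/6J background that the labels call acute myeloid leukemia (AML) cells. The genes were found by symbol in the gene table of the array platform, and only probe sets assigned to exactly 1 gene were used. Between several probe sets of a gene, the one with the highest mean of the 6 arrays was to be selected on the measured values, but no gene had more than 1. Of the 7 genes sought (H1f0, H1f1, H1f2, H1f3, H1f4, H1f5 and H1f10), 5 had such a probe set, out of 19938 genes measured in this way. H1f4 stood only on a probe set that it shares with the core histone gene H2bc6, whose values are given apart, and the table lists none for H1f0, which was not analysed here. Total RNA had been hybridised to 3 Affymetrix Mouse Gene arrays for the PBS group, exposed to PBS for 48 h, and 3 for the PJ34 group, exposed for as long to 20 μM PJ34. PJ34 is a small molecule that inhibits PARP-1, a poly(ADP-ribose) polymerase. All 6 samples are of the same line and carry no other treatment, and the study calls the experiments independent, but the labels name no separate cultures, so the spread between them may be partly technical.

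Linker histones bind nucleosomes where DNA enters and leaves the core particle and help fold the chromatin fiber. H1f1 to H1f5 are replication-dependent genes of the large histone cluster. They are transcribed mainly in S phase, have no introns, and give mRNAs that typically, though not always, end in a stem-loop rather than a poly(A) tail. H1f0 and H1f10 lie outside the cluster, give polyadenylated mRNAs and are also expressed in cells that do not divide, and H1f0 is known to accumulate in differentiated cells. PARP-1 is an abundant chromatin protein that competes with H1 for nucleosomes and attaches ADP-ribose to it. The RNA was labelled with a kit that also primes mRNAs without a poly(A) tail.

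The stretches upstream of the 5 measured genes are shown because H1 genes of the cluster are known for a common promoter layout, beside which their values on the arrays can be read. Each holds the 140 bases before the annotated start, from RefSeq on GRCm38.p6, 5′ to 3′ in the direction of the gene. They are chr13:23738667-23738806 (+ strand) for H1f2, chr13:23554892-23555031 (+) for H1f3, chr13:23763528-23763667 (+) for H1f1, chr13:21780626-21780765 (- strand) for H1f5 and chr6:87981483-87981622 (-) for H1f10. Capitals mark the H1 box AAACACA, the CCAAT box on either strand, and the TATA matches TATAAA and TATATA, which may overlap.
H1f2: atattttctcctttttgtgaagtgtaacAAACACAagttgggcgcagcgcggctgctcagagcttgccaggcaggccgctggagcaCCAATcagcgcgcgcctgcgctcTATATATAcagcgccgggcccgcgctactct
H1f3: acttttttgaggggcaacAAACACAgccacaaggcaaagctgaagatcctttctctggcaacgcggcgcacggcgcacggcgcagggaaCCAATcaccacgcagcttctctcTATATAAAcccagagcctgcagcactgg
H1f1: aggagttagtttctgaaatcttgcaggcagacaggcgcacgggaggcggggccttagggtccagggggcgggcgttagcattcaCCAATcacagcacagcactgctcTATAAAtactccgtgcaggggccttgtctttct
H1f5: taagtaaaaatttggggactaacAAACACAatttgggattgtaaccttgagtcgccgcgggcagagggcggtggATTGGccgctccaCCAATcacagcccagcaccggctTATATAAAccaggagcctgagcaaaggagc
H1f10: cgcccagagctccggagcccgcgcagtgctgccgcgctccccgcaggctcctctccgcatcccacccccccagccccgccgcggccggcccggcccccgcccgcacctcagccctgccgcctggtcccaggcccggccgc

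In the 250 bases before each start, H1f2, H1f3, H1f4 and H1f5 each held 1 copy of AAACACA in the direction of the gene, beginning 112, 122, 115 and 117 bases upstream. They shared the longer run AACAAACACA, which 33 other promoters of the 32851 in the table also held. The promoter of H1f1 had no AAACACA in this window. It had the CCAAT box (56 bases upstream) and TATAAA (33 bases upstream) at about the same places as H1f2 to H1f5. There the nearest CCAAT in the direction of the gene began 51 to 54 and the TATA match 28 to 31 bases upstream. The testis H1 gene H1f6, also in the cluster, had AAACACA 114, CCAAT 65 and TATATA 43 bases upstream. None of the searched letters was found before H1f10 or H1f0. Over all 32851 promoters of the same length, searched on both strands, 6.25% held AAACACA, 33.8% CCAAT, 12.4% TATAAA and 5.25% TATATA. Of 18 core histone genes with a promoter among these, 4 held AAACACA, 14 CCAAT, 11 TATAAA and 5 TATATA, so the matches are not particular to H1 genes. H1f2, H1f3 and H1f5, whose log2 differences on the arrays were 1.53, 1.03 and -0.13, had the same 3 kinds of match at nearly the same distances.

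**Figure D1:**
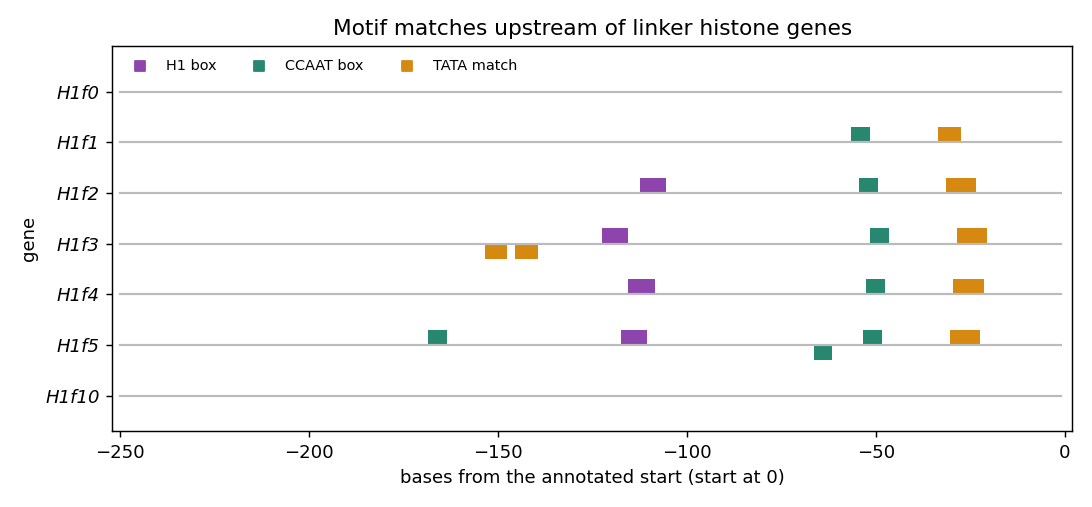
Matches to the H1 box (purple), the CCAAT box (green) and TATAAA or TATATA (orange) in the 250 bases before the annotated start of the 7 linker histone genes, by distance from the start (horizontal axis, bases). Boxes above a line lie on the strand of the gene and boxes below it on the other strand. H1f2 to H1f5 have all 3 kinds, H1f1 lacks the H1 box, and H1f0 and H1f10 have none.

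Values below are the deposited log2 expression values, and a difference is PJ34 minus PBS on the log2 scale, so that 1 stands for a 2-fold rise. Each of 23410 probe sets with a gene was compared by limma, with Benjamini-Hochberg adjustment of p over all of them. A gene was said to rise or fall at an adjusted p under 0.05. In this fit 3.06% of the probe sets passed, 1.72% higher and 1.34% lower with PJ34. Levels of different genes are not compared with each other, since their probes differ. Only H1f10 and the cell type markers are set against all probe sets, as a rough guide.

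Of the 4 replication-dependent H1 genes with a probe set of their own, 3 rose with PJ34 (H1f2, H1f3 and H1f1) and H1f5 did not pass. H1f10, the only replication-independent H1 gene measured, did not pass either, and none of the 5 fell. The median difference was 0.68 over the 4 and 0.34 over the 5, against 0.0029 over all probe sets tested. The study had listed H1f2 and H1f3 among its most raised genes on these same arrays, and the genes were chosen with that known, so their direction is not independent evidence.

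H1f2 (formerly Hist1h1c) encodes H1.2, one of the main H1 proteins of dividing somatic cells. Its values were 7.93, 8.06 and 8.08 on the PBS arrays and 9.45, 9.65 and 9.54 on the PJ34 arrays. The groups stood far apart, with the lowest PJ34 array 1.37 above the highest PBS array. The mean was 8.02 ± 0.085 (SD, n = 3) with PBS and 9.55 ± 0.097 with PJ34. H1f2 was thus 2.88-fold higher with PJ34 (95% confidence interval 2.55 to 3.25), with a log2 difference of 1.53 (SE 0.077, adjusted p = 0.000114 from limma). It ranked 3 by rise among the 23410 probe sets. Leaving out any 1 array left the difference between 1.48 and 1.57, and it passed in all 6 of these fits.

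H1f3 (formerly Hist1h1d) encodes H1.3, a close relative of H1.2. It read 5.00, 5.28 and 5.54 on the PBS arrays and 6.20, 6.50 and 6.21 on the PJ34 arrays. Of the 5 genes it varied most among the PBS arrays, with an SD of 0.27, but the groups did not overlap and lay 0.66 apart. The means were 5.27 ± 0.27 (SD, n = 3) with PBS and 6.30 ± 0.17 with PJ34. The gene was 2.04-fold higher with PJ34 (95% confidence interval 1.64 to 2.54), a log2 difference of 1.03 (SE 0.14, adjusted p = 0.00816 from limma), and ranked 17 by rise. It passed also without any 1 array, in 6 of 6 fits, with differences of 0.89 to 1.16. It did not pass when all 35556 probe sets of the arrays were fitted (adjusted p = 0.0564 from limma) or by the methods' t-test with adjustment (adjusted p = 0.119), and over all settings its adjusted p ran from 0.00011 to 0.119. Whether the probe set of H1f3 also takes up mRNA of H1f2 was not tested.

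H1f1 (formerly Hist1h1a) encodes H1.1, an H1 of thymus, spleen and testis among other tissues. Its values were 6.61, 6.71 and 6.78 with PBS and 7.05, 7.02 and 7.04 with PJ34. The PJ34 arrays lay within 0.03 of each other and all stood above the PBS arrays, by 0.24 at the nearest. The means were 6.70 ± 0.087 (SD, n = 3) and 7.04 ± 0.015. The rise was small, 1.27-fold (95% confidence interval 1.14 to 1.41), with a log2 difference of 0.34 (SE 0.067, adjusted p = 0.0352 from limma). The call was lost in each of the 6 fits without 1 array, where the difference stayed at 0.29 to 0.38 and the adjusted p was 0.0607 to 0.123, and over all settings the adjusted p was 0.00578 to 0.123.

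H1f5 (formerly Hist1h1b) encodes H1.5, typical of proliferating cells. It read 9.25, 9.28 and 9.36 with PBS and 9.18, 9.09 and 9.25 with PJ34. The groups overlapped slightly, since PJ34 replicate 3 and PBS replicate 1 had nearly the same value. The means were 9.30 ± 0.059 (SD, n = 3) and 9.17 ± 0.081. The log2 difference of -0.13 (SE 0.070, adjusted p = 0.42 from limma) did not pass, and its 95% confidence interval, -0.29 to 0.03, holds no rise above 1.02-fold.

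H1f10 (formerly H1fx) encodes H1.10, a variant distant in sequence from the H1 proteins of the cluster. Its values were 4.59, 4.57 and 4.63 with PBS and 4.59, 4.50 and 4.67 with PJ34, and the groups overlapped fully. The means were 4.60 ± 0.029 (SD, n = 3) and 4.59 ± 0.085. The log2 difference was -0.0081 (SE 0.067, adjusted p = 0.974 from limma), with a 95% confidence interval of -0.16 to 0.15. The probe set was near the middle in brightness, with 48.2% of the tested probe sets at a lower mean, and how much of its signal is background is not known.

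The probe set shared by H1f4, which encodes H1.4, and H2bc6 read 8.13, 8.11 and 8.14 with PBS and 8.31, 8.35 and 8.28 with PJ34. All PJ34 values were higher, with means of 8.13 ± 0.014 (SD, n = 3) and 8.31 ± 0.036, and the log2 difference of 0.19 (SE 0.059, adjusted p = 0.146 from limma) did not pass. Which of the 2 genes gave the signal cannot be told apart.

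**Figure D2:**
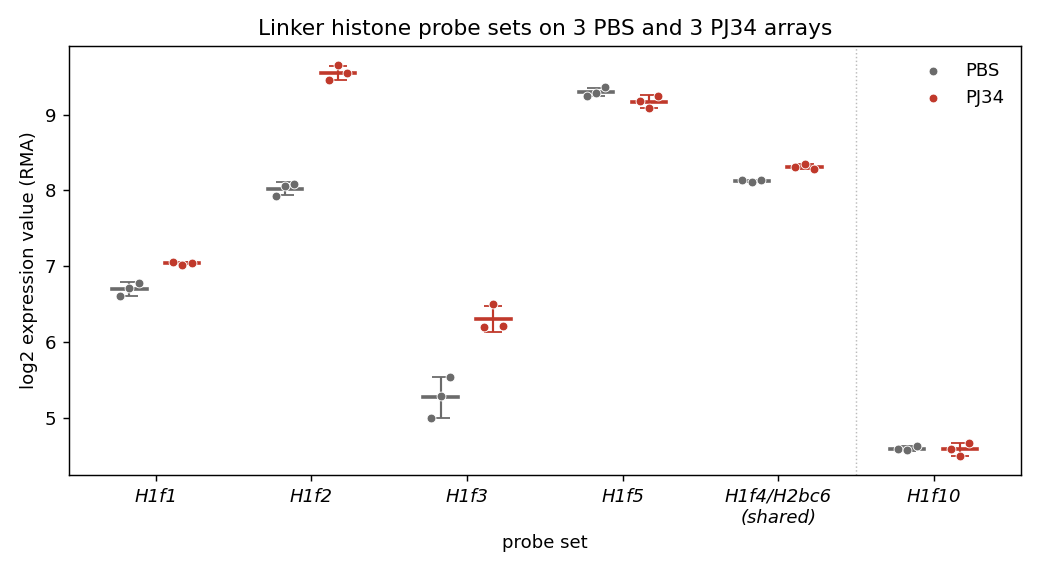
Log2 expression value (vertical axis) of each linker histone probe set on the 3 arrays with PBS (grey) and the 3 with PJ34 (red), with bars at the group means and whiskers of 1 SD. The dotted line parts the replication-dependent genes from H1f10. The groups lie apart for H1f1, H1f2, H1f3 and the shared probe set of H1f4 and H2bc6, and overlap for H1f5 and H1f10.

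All 3 PJ34 values lay above all 3 PBS values for 3 of the 5 genes, and all below for none. Over all probe sets tested, 12.6% lay wholly above and 10.9% wholly below. For H1f1, H1f2 and H1f3 the exact two-sided permutation test over the 6 arrays gave p = 0.1, the smallest that 3 against 3 allow. The same exact test gave p = 0.2 for H1f5 and p = 0.9 for H1f10.

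**Figure D3:**
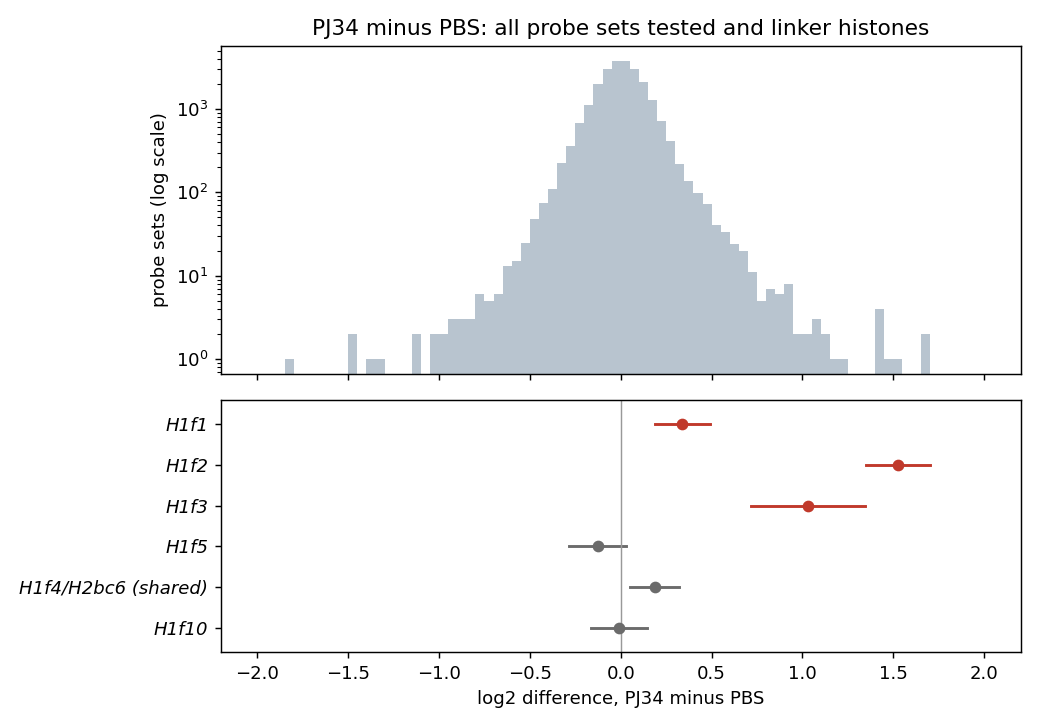
Upper panel, number of probe sets (vertical axis, log scale) by log2 difference, PJ34 minus PBS, for the 23410 probe sets tested. Lower panel, the same difference for the linker histone probe sets with 95% confidence intervals from limma, red where the adjusted p was under 0.05. H1f2 and H1f3 lie in the upper tail, H1f1 at its edge, and the intervals of H1f5 and H1f10 include 0.

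Whether the genes responded unequally was tested on the difference between 2 genes within each array, for all 10 pairs of the 5 genes. H1f2 minus H1f5 was -1.32, -1.22 and -1.28 on the PBS arrays and 0.28, 0.56 and 0.30 on the PJ34 arrays, a shift of 1.65 (SE 0.096). H1f2 rose by 0.50 more than H1f3 (SE 0.12) and by 1.19 more than H1f1 (SE 0.066). For H1f3 against H1f1 the shift was 0.69 (SE 0.15), and for H1f1 against H1f5 it was 0.47 (SE 0.046). The smallest shift was between H1f5 and H1f10, at -0.12 (SE 0.024). In all 10 pairs the PJ34 and PBS arrays did not overlap, and each gave the smallest p possible here (exact two-sided permutation test, p = 0.1, and 0.1 after Benjamini-Hochberg adjustment over the 10), so that none could pass. The 10 pairs reuse the same 5 genes and are not independent. H1f2 and H1f3 were chosen with their rise on these arrays known, so the shifts of their pairs are not independent evidence. How often other pairs of genes lie apart was not counted. The order H1f2, H1f3, H1f1, then H1f10 and H1f5 held without any 1 array.

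In the order of protein-coding genes on chromosome 13, the H1 genes that rose did not stand beside each other. H1f2 lies between Hfe, an iron-regulating gene with a difference of -0.01, and H3c3, which has no probe set of its own in the table. The next measured histone genes beyond these were lower with PJ34 on one side, H2bc3 at -0.50 (SE 0.070, adjusted p = 0.00964 from limma) and H2ac4 at -0.44 (SE 0.066, adjusted p = 0.0118). On the other side they were H4c3 (-0.26, did not pass), the testis H1 gene H1f6 (0.02) and H2bc4, which rose by 1.45. H1f3 lies next to H4c6, which fell (-0.40, SE 0.073, adjusted p = 0.0255 from limma), and the nearest measured gene on its other side, H2ac8, had a difference of 0.07. Beyond H2ac8 the next measured genes rose, H2bc8 by 0.45 (SE 0.094, adjusted p = 0.0441 from limma) and H3c4 by 0.89 (SE 0.15, adjusted p = 0.0216). H1f1 lies at the end of a run of histone genes, next to Trim38, at 0.02. H1f5 sits apart in another stretch of the cluster, where H2ac15 (-0.31) and H2bc22 (0.26) were the nearest measured histone genes, and neither passed. The call of H4c6 held in only 1 of the 6 fits without 1 array, those of H2ac4 and H3c4 in 3, that of H2bc8 in 1 and that of H2bc3 in 5.

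**Figure D4:**
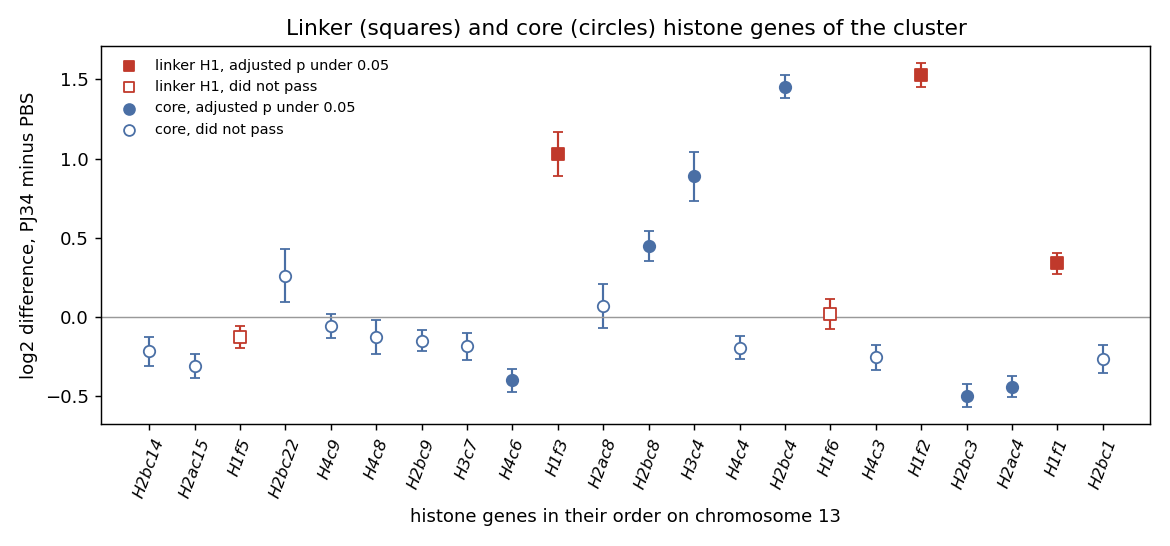
Log2 difference, PJ34 minus PBS (vertical axis), with its SE for linker (red squares) and core (blue circles) histone genes with a probe set of their own. They are shown from H2bc14 to H2bc1 in gene order along chromosome 13 (horizontal axis, not to scale). Filled symbols passed at an adjusted p under 0.05. The measured histone genes nearest to H1f2 and H1f3 on either side were lower or did not pass, and farther out H2bc4, H2bc8 and H3c4 rose.

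Core histones package DNA into nucleosomes, and the replication-dependent ones are made with H1f1 to H1f5 in S phase. Of 22 core histone genes with a probe set of their own, listed as replication-dependent by symbol alone, 5 rose and 3 fell. The 5 were H2bc4 (1.45), H3c4 (0.89), H3c15 (0.68), H2bc21 (0.68) and H2bc8 (0.45), and the median over the 22 was -0.14. The 8 calls make 36.4% of the list, against 3.06% of all probe sets. All 3 PJ34 values lay below all PBS values for 10 of the 22 (45.5%) and above for 5 (22.7%), against 10.9% and 12.6% of all probe sets. H2bc4 too was on the study's list of raised genes from these arrays. So was Hist1h2ac (now H2ac6), the neighbour of H2bc4, which has no probe set of its own here and is not among the 22. As among the H1 genes, rises stood beside genes with no rise. Copies of these genes are nearly identical, and 26 further probe sets are assigned to several of them, so that single core histone genes are uncertain. Without 1 array, H2bc4, H2bc21 and H3c15 passed in all 6 fits. None of the 4 H1 genes of the germ line (H1f6, H1f7, H1f8 and H1f9) passed, with differences of -0.24 to 0.02 and 0 at an unadjusted p under 0.05 from limma or after adjustment of the methods' t-test.

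Genes that make, bind and modify H1 passed in shares of 0% to 6.45% by list, against 3.06% of all probe sets, with at most 2 genes in a list. Without adjustment, 20% to 32.3% of each list had a p under 0.05 (limma), against 16.7% of all probe sets. Of 31 measured genes of histone gene transcription and 3′ end processing, Nfyc rose and Tbpl1 fell. Nfyc encodes a subunit of NF-Y, the factor that binds CCAAT boxes, and its difference was 0.35 (SE 0.068, adjusted p = 0.0351 from limma). Tbpl1 encodes a relative of the TATA-binding protein that is known to act at the H1 promoter in flies, and its difference was -0.53 (SE 0.075, adjusted p = 0.0099 from limma). Slbp, which binds the stem-loop at the end of histone mRNAs, had a difference of 0.09 (95% confidence interval -0.06 to 0.25), and Npat, the coactivator of histone genes in S phase, of 0.13 (-0.06 to 0.31). Neither passed. Of 16 genes of histone mRNA decay none passed, with 4 (25%) at an unadjusted p under 0.05 from limma and none after adjustment of the methods' t-test. Nfyc was lost in each of the 6 fits without 1 array and Tbpl1 without PBS replicate 2.

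Of 27 measured chaperones and binding partners of H1, 1 rose. It was Set, a histone chaperone, with 5.52, 5.33 and 5.26 on the PBS arrays and 5.99, 6.17 and 5.79 on the PJ34 arrays, a difference of 0.61 (SE 0.11, adjusted p = 0.0228 from limma). Among the 6 fits without 1 array, it passed in those without PBS replicate 1 and without PJ34 replicate 3. Nasp, a chaperone that carries H1 in the nucleus, was at 0.03 (95% confidence interval -0.17 to 0.22). Parp1, the gene of the protein that PJ34 inhibits, read 9.13, 9.20 and 9.18 with PBS and 9.13, 9.17 and 9.02 with PJ34, a difference of -0.07 (-0.22 to 0.09), and neither passed. Of 30 enzymes that modify H1, the demethylase Kdm4a fell (-0.31, SE 0.064, adjusted p = 0.0423 from limma), a call lost in each of the 6 fits without 1 array. The medians of these lists, 0.02 to 0.04, lay near that of all probe sets.

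Because H1f1 to H1f5 are S phase genes, 48 genes of DNA replication and S phase were read in the same fit. Of these, Tk1, the thymidine kinase, fell by 0.49 on the log2 scale and Rfc4, a clamp loader subunit, by 0.31, and none rose. The median was -0.02. The 2 calls make 4.17% of the list, near the 3.06% of all probe sets. Counts without adjustment were larger, with 17 of the 48 (35.4%) at an unadjusted p under 0.05 from limma, against 16.7% of all probe sets. All 3 PJ34 values lay below all PBS values for 13 of the 48 (27.1%) and above for 9 (18.8%), against 10.9% and 12.6% of all probe sets. Rfc4 lost its call in each of the 6 fits without 1 array and Tk1 in 5, the exception being that without PJ34 replicate 1. In bulk RNA, a change in the share of cells in S phase and a change of mRNA per cell cannot be told apart.

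Over the 6 arrays, genes most like H1f2 were sought among 2669 probe sets with 1 gene and a range of at least 0.5. They were Fam102a (Pearson r = 0.999), the Wnt receptor Fzd6 (0.999), the adaptor Sla (0.998), the G protein regulator Rgs2 (0.998) and the transcription factor Klf6 (0.997), whose values rose by 0.47 to 1.42. For H1f3 they were the antiproliferative gene Btg1 (0.995), Neurl3 (0.995), Bcl2l11, which encodes the pro-apoptotic protein Bim (0.995), Ier5 (0.993) and the chemokine receptor Cx3cr1 (0.993), with rises of 0.37 to 0.81. These r describe 6 arrays that fall into 2 groups, so that they mostly restate the step between PBS and PJ34.

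The arrays were alike, with medians of 4.41 to 4.46 over all probe sets and correlations of 0.992 to 0.995 within and 0.992 to 0.994 between groups, and none stood apart. Of 18 myeloid markers, 4 lay above the median probe set (4.42), namely Cebpa, Cebpe, Fcgr1 and Cd68. The others, among them the defining myeloid genes Mpo, Elane and Spi1, lay at or below it. Few markers of the label thus stood above this cut, which without detection calls does not part expressed genes from background. Of 18 measured T and NK cell markers, 7 lay above it with PBS and 9 with PJ34, including Cd3e, Cd3d, Cd3g and Cd7. Of these, Cd3d was near the cut, with means of 4.81 with PBS and 4.71 with PJ34. So were, among the myeloid markers, Cebpa (4.93 and 4.79), Cebpe (4.83 and 4.82) and, with PBS, Cd68 (4.72). Cd247, Cd8a, Cd8b1, Cd2, Cd5, Thy1, Klrb1c, Ncr1 and Gzmb lay below the median probe set in both groups. Cd4 and Gzma lay below it with PBS and just above it with PJ34, at 4.45 and 4.46. The summed log2 value of the 18 T and NK cell markers was 95.4 to 96.5 with PBS and 100.6 to 101.0 with PJ34. The rise of the sum lay mostly in 4 of the 18, Cd7 (1.66), Cd28 (1.44), Gzma (0.90) and Cd4 (0.62), which passed, while the other 14 did not, and the median difference over the 18 was 0.05. The 4 calls make 22.2% of the T and NK cell markers, against 3.06% of all probe sets. The part of these markers in the H1 values was not tested. The summed myeloid values were also higher with PJ34 without overlap, at 67.1 to 68.0 with PBS and 68.1 to 70.2 with PJ34. Of the 18 myeloid markers Fcgr1 (0.63) and Cd68 (0.51) rose, or 11.1%. Of 8 measured B cell markers 0 lay above the median probe set, and of 8 erythroid and megakaryocyte markers 2 did. Ighm, 1 of these B cell markers, had a difference of -0.03 here. The study listed Ighm among its raised genes on another probe set, which was not used here.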

How the data were processed

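RNA of C1498 cells was measured on 6 arrays, 3 per group, grouped by their labels. The submitters' processing notes name Affymetrix Expression Console 1.3.1 with RMA. The authors deposited 1 log2 expression value for each probe set and array, to which RMA has applied background correction and quantile normalization, so that a change shared by most genes would not be seen. The number of arrays limits the precision.

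The values were used as deposited. The platform's gene table names 23410 of 35556 probe sets, 21789 by 1 gene and 1621 by several. All 23410 were fitted with limma 3.58.1 in R 4.3.3, PJ34 minus PBS, after the script was tested on simulated data. Gene lists used 1 probe set per gene, that with the highest mean. Other settings centred the arrays, modelled an intensity trend, left out dim probe sets or single arrays, fitted all probe sets, used the methods' 2-tailed Student's test, or added the replicate number as a block.

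The genes and lists were chosen with earlier results of these data known. Named are all H1 genes, up to 10 called genes per list and direction, Slbp, Npat, Nasp, Parp1, the 5 probe sets most like H1f2 and H1f3, and neighbours by position. Of 21 planned pairs of H1 genes, 10 could be compared. Promoter sequences are from RefSeq on GRCm38.p6, matched by symbol for all 7 genes. No genome build of the array values is given in the sources used here.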

Additional observations from a re-analysis of the deposited data

How the results depend on the processing

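The rise of H1f2 passed in all 14 settings tried, of which taking the mean over all probe sets of a gene changes nothing here, as each gene has 1. Those of H1f3 and H1f1 passed in 12 and 4. H1f3 did not pass when all 35556 probe sets were fitted (1.03, adjusted p = 0.0564 from limma) or with the adjusted t-test of the methods (1.03, adjusted p = 0.119). H1f1 did not pass with array medians centred (0.32, adjusted p = 0.0524 from limma), with all probe sets fitted (0.34, adjusted p = 0.106) or with the adjusted t-test (0.34, adjusted p = 0.0998). Nor did it with the replicate block (0.34, adjusted p = 0.0787 from limma) or without any 1 array (0.29 to 0.38). Accordingly, 1 H1 gene instead of 3 was higher with all probe sets fitted and with the adjusted t-test. With array medians centred, with the replicate block and without any 1 array, 2 were higher. H1f5 passed in no setting, and H1f10 changed sign without PBS replicate 3 (0.0076) and without PJ34 replicate 2 (0.035), within -0.050 to 0.035 without any 1 array. The 10 differences between H1 genes, recomputed without each array (chosen after seeing the data), kept their direction. Nasp, near 0, changed sign without PJ34 replicate 2, within -0.063 to 0.080 without any 1 array.

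The values gave no sign that samples of the same replicate number were paired, though so few samples cannot settle this. Deviations from the group means correlated at -0.013, 0.13 and -0.0089 for numbers 1, 2 and 3, against -0.15 to 0.14 for unlike numbers. With the replicate block, 219 probe sets were higher and 140 lower, H1f2 and H1f3 passed and H1f1 did not (0.34, adjusted p = 0.0787 from limma). Calls in the lists became 1 for histone gene transcription and processing, 0 for H1 modifying enzymes and 0 for S phase genes.

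The 402 higher and 314 lower probe sets became 1008 and 920 with an intensity trend and robust eBayes, 891 and 776 without dim probe sets, 112 and 76 with all probe sets fitted, 78 and 62 with the adjusted t-test and 1955 and 1777 at its unadjusted threshold. Without 1 array they were 143 to 281 and 79 to 320. In the same order of settings, calls in the list of histone gene transcription and processing (2) were 6, 4, 0, 0 and 12, with 1 after centring. For chaperones and partners (1) they were 2, 2, 0, 0 and 7, for modifying enzymes (1) 2, 2, 0, 0 and 7, and for S phase genes (2) 11, 8, 0, 0 and 15. Genes of mRNA decay (0) had 2, 1 and, at the unadjusted threshold, 5. Core histones (8) had 12 with the intensity trend and 11 of 21 without dim probe sets. They had 2 with all probe sets fitted, 1 with the adjusted t-test and 13 at its unadjusted threshold. Without 1 array these lists had 0 to 1, 0 to 1, 0, 0 to 1, 0 and 3 to 6 calls. The cause of these changes was not tested. Without detection calls, the share of background in each signal, that of H1f10 included, is unknown.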
